A study of Mus musculus with 6 samples.

Results

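The kinesin genes described here are the 43 protein-coding genes, of 54532 genes in the deposited table, whose symbol begins with Kif followed by a digit or by c. The rule uses the symbol and no measured value, but the family and the roles given to its members were chosen with earlier results of these data known. Of these, 42 encode proteins of the kinesin motor family, and *Kif1bp* encodes a KIF1 binding protein that is not a motor. The values are from RNA-seq of STRA8-positive (STRA8+) cells, germ cells isolated from mouse testes, with 3 control libraries and 3 libraries of conditional knockout (cKO) cells. The labels give the control genotype as Cre and the cKO genotype as *Srsf1* knockout. They do not name the promoter that drives Cre, the age or the strain, and they do not say whether a library is 1 animal or a pool. *Srsf1* encodes a splicing factor of the SR family. If replicates are not separate animals, the p-values measure a spread that may be technical.

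Most kinesins are motor proteins that use ATP to move along microtubules or to take them apart at their ends. During cell division they build the spindle, move chromosomes and finish the split of the cytoplasm. In other cells they carry vesicles and organelles, and in cilia and sperm tails they carry building material along the axoneme or control its length. In the testis, dividing spermatogonia and spermatocytes use the first group, and spermatids, which shape the nucleus and grow a tail, use the second.

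Between 14447887 and 17310353 fragments were counted per library. Levels are in FPKM, fragments scaled to gene length and to library depth, and the values of a group are in the order of replicates 1, 2 and 3. *Srsf1* had control values of 84.7, 45.2 and 51.9 FPKM and cKO values of 5.08, 4.94 and 5.17 FPKM, so the targeted gene matched the labels. Markers of differentiating spermatogonia were present in every library, with a summed level of 738 to 853 FPKM in the controls and 783 to 896 FPKM in the cKO libraries over 8 genes that include *Stra8* and *Kit*, of which *Dmrtb1* was called lower and none higher. The sum of 10 early meiotic prophase markers was 1281 to 1696 FPKM in the controls and 1293 to 1750 FPKM in the cKO libraries, and 2 of the 10, *Spo11* and *Rec8*, were called lower. Of 8 markers of undifferentiated spermatogonia, 6 were tested, with 1 called higher (*Ret*) and 1 lower (*Id4*). Markers of later stages were far lower in the cKO libraries. The sum of 10 pachytene spermatocyte markers was 1124 to 1330 FPKM in the controls against 243 to 271 FPKM in the cKO libraries, and 9 of the 10 were called lower. The sum of 10 spermatid markers was 2536, 8363 and 2494 FPKM in control replicates 1 to 3 against 10.6, 9.85 and 7.75 FPKM in cKO replicates 1 to 3, so control replicate 2 stood apart. All 10 spermatid markers were called lower. Their part in the kinesin results was not tested. Of the 8 Sertoli cell markers, 7 were tested and 1 was called higher, and their sum was 28.4 to 42.4 FPKM in the controls and 25.7 to 70.0 FPKM in the cKO libraries. Of 6 Leydig cell, 5 peritubular cell and 7 macrophage and blood markers, 2, 2 and 3 were tested and none was called. Their sums were 2.96 to 13.98 FPKM in the controls and 6.35 to 10.7 FPKM in the cKO group for Leydig cells, 3.70 to 6.44 FPKM and 7.04 to 8.16 FPKM for peritubular cells, with no overlap, and 5.75 to 10.7 FPKM and 5.85 to 7.98 FPKM for macrophages and blood.

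In *Srsf1* cKO cells, 8 of the 15 kinesins of cell division were called higher and 1 lower, and 5 of the 8 tested kinesins of cilia and the flagellum were called lower and 1 higher. Of the 38 members with a mean of at least 1 FPKM, 11 were called higher, where 11.8% of all 15451 genes tested were, and 7 were called lower, where 22.2% of all genes tested were and 34.0% were called in either direction (limma on log2(FPKM + 1), Benjamini-Hochberg adjusted p of at most 0.05). Over all genes tested, 1821 were called higher and 3437 lower, and under quantile normalization, which moved the all-gene median to 0.21, 5164 were called higher and 2527 lower, with 17 and 7 kinesin genes among them. The rises were modest, from 1.31-fold to 1.71-fold in mean FPKM. The falls ranged from *Kif27*, which kept 59.8% of its control mean, to *Kif2b*, whose control mean was 485.9 times its cKO mean, or 262.2 times without control replicate 2, on 12 cKO fragments in all. The median log2 fold change was 0.09 over the 38 members tested and -0.01 over all genes tested. The 3 cKO libraries lay above the 3 control libraries in 13 of the 38 members (21.8% of all genes tested) and below them in 9 (28.6%). In bulk libraries, fewer cells of a stage and less RNA per cell cannot be told apart.

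**Figure D1:**
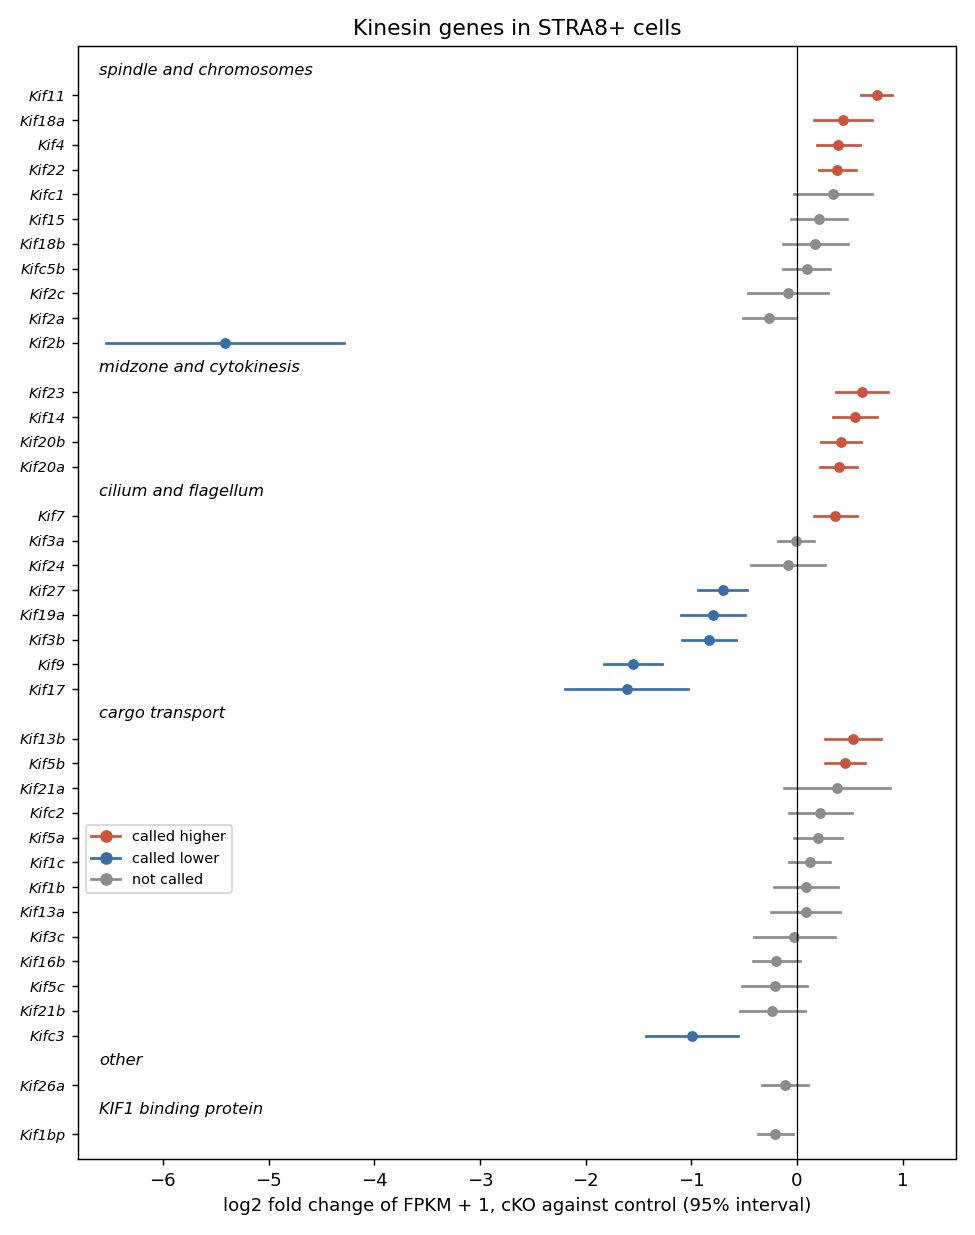
Log2 fold change of FPKM + 1 in cKO against control STRA8+ cells (horizontal axis) for the 38 kinesin genes tested, grouped by role, with points for the estimate and lines for its 95% interval from limma. Red marks the 11 genes called higher, blue the 7 called lower and grey the 20 not called. *Kif2b* stands far to the left of the other spindle kinesins, and the 4 midzone kinesins lie to the right of 0.

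By role, the members divided as follows. Of 11 spindle and chromosome kinesins, 4 were called higher and 1 lower. Each of the 4 midzone and cytokinesis kinesins was called higher. Of 9 members linked to cilia and flagella, 8 were tested, of which 1 was called higher and 5 lower. Of 15 cargo kinesins, 13 were tested, of which 2 were called higher and 1 lower. The summed level of the midzone kinesins was 83.5 to 87.8 FPKM in the controls and 120.1 to 128.3 FPKM in the cKO group, and that of the cargo kinesins was 113.3 to 119.8 FPKM and 125.8 to 137.3 FPKM. The cilium and flagellum kinesins summed to 127.3 to 139.7 FPKM and 88.5 to 96.5 FPKM. The groups did not overlap in these 3 sums. The spindle kinesins, *Kif2b* included, summed to 214.9 to 295.1 FPKM and 217.1 to 235.9 FPKM, which overlapped. Without *Kif2b*, the other 10 spindle kinesins summed to 186.8 to 191.5 FPKM and 217.1 to 235.7 FPKM, with no overlap.

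The largest rise was in *Kif11* (ENSMUSG00000012443; GRCm38 chromosome 19, 37376403 to 37421859, plus strand), which encodes the motor that slides spindle poles apart and keeps the spindle bipolar. Its control values were 29.2, 29.1 and 31.0 FPKM and its cKO values 50.1, 51.7 and 50.5 FPKM. Replicates differed little within either group, and the groups were far apart. It changed on the log2 scale by 0.75 (limma, standard error 0.062, Benjamini-Hochberg adjusted p = 1.5e-04), or 1.71-fold.

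*Kif23* (ENSMUSG00000032254; chromosome 9, 61915905 to 61946774, minus strand) encodes the motor of centralspindlin, the complex that bundles midzone microtubules and places the cleavage furrow. Its mean over the 6 libraries was the highest of the kinesin genes. It had control values of 36.5, 31.8 and 37.8 FPKM and cKO values of 51.8, 61.5 and 51.0 FPKM. The cKO libraries were all above the control libraries, and cKO replicate 2 was the highest. The fitted log2 change was 0.62 (limma, standard error 0.10, Benjamini-Hochberg adjusted p = 0.0040).

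The other midzone kinesins moved the same way. *Kif14*, which acts in cytokinesis, had control values of 4.92, 5.41 and 5.63 FPKM and cKO values of 8.60, 7.98 and 8.14 FPKM (log2 fold change 0.55, standard error 0.089, limma adjusted p = 0.0037). *Kif20b*, of the same kinesin-6 family as *Kif23*, had control values of 14.5, 14.8 and 16.6 FPKM and cKO values of 19.997, 21.7 and 20.4 FPKM (log2 fold change 0.41, standard error 0.080, limma adjusted p = 0.0078). *Kif20a*, which brings Aurora B kinase to the midzone, had control values of 30.002, 31.6 and 27.9 FPKM and cKO values of 40.6, 37.2 and 40.5 FPKM (log2 fold change 0.39, standard error 0.075, limma adjusted p = 0.0075). Replicates of different groups did not overlap in these 3 genes. Exons of *Cdc23* on the other strand cover 29.3% of the exonic bases of *Kif20a*. *Cdc23* itself averaged 5.02 FPKM in the controls and 5.37 FPKM in the cKO libraries and was not called (limma adjusted p = 0.54).

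Among spindle and chromosome kinesins, *Kif4* and *Kif22*, which encode chromokinesins (kinesins of chromosomes), also rose. *Kif4*, the 1 X-linked member, had control values of 12.6, 10.9 and 12.6 FPKM and cKO values of 16.7, 16.2 and 15.5 FPKM (log2 fold change 0.39, standard error 0.084, limma adjusted p = 0.012). *Kif22* had control values of 13.8, 13.6 and 12.4 FPKM and cKO values of 17.9, 17.4 and 17.5 FPKM (log2 fold change 0.38, standard error 0.074, limma adjusted p = 0.0077). In both genes the lowest cKO library was above the highest control library. Exons of *Pdzd11* on the other strand cover 15.1% of the exonic bases of *Kif4*, and *Pdzd11* was not called (0.04, limma adjusted p = 0.79).

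*Kif18a*, whose product damps chromosome movements at the metaphase plate, gave a less stable call. Its control values were 6.46, 5.73 and 6.95 FPKM and its cKO values 8.05, 10.2 and 8.79 FPKM, and the groups did not overlap. On the log2 scale its change was 0.44 (standard error 0.12, limma adjusted p = 0.026). The call was lost without control replicate 1 (0.45, adjusted p = 0.066), control replicate 2 (0.37, adjusted p = 0.059), cKO replicate 2 (0.36, adjusted p = 0.072) or cKO replicate 3 (0.45, adjusted p = 0.074), and under quantile normalization the change was 0.69 (adjusted p = 0.0053).

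**Figure D2:**
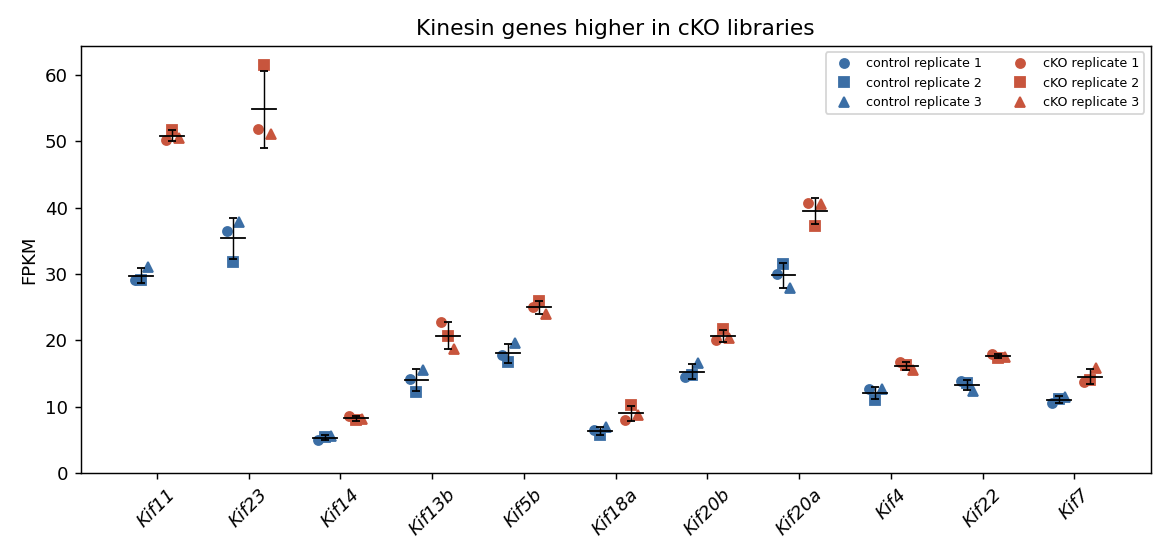
FPKM of the 11 kinesin genes called higher in cKO STRA8+ cells, with a symbol for each library (blue, control; red, cKO), a line for the mean and bars for 1 SD (n = 3 per group). In each gene the 3 cKO libraries lie above the 3 control libraries.

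Apart from *Kif2b*, which fell, the remaining spindle kinesins were not called in the fit over the 6 libraries. *Kif2c*, a microtubule depolymerase of the centromere, was at 32.5 ± 7.69 FPKM in the controls and 30.1 ± 2.52 FPKM in the cKO libraries (SD, n = 3; limma adjusted p = 0.71), with a 95% interval of the log2 fold change from -0.46 to 0.29. *Kif2a*, the depolymerase of spindle poles, had control values of 33.5, 26.6 and 31.7 FPKM and cKO values of 27.2, 24.8 and 23.8 FPKM. Control replicate 2 was below cKO replicate 1, so the groups overlapped. The log2 fold change of *Kif2a* was -0.26 (standard error 0.10, limma adjusted p = 0.094), and without control replicate 2 it was -0.36 with an adjusted p of 0.022, which passed the threshold. Exons of *Dimt1* on the other strand cover 19.2% of the exonic bases of *Kif2a*, and *Dimt1* had a log2 fold change of -0.27 with no overlap between the groups (limma adjusted p = 0.096). *Kifc1*, a minus-end motor that focuses spindle poles, had control values of 15.8, 17.2 and 18.6 FPKM and cKO values of 27.4, 17.7 and 22.0 FPKM. It was not called (log2 fold change 0.34, standard error 0.15, limma adjusted p = 0.14), but passed without cKO replicate 2 (0.49, adjusted p = 0.035). Its near copy *Kifc5b* was at 19.2 ± 2.11 FPKM in the controls and 20.5 ± 0.621 FPKM in the cKO libraries. In *Kifc1*, 83.0% of the 100-base windows of its transcripts occur in no other annotated gene, and in *Kifc5b* 83.4%, so reads of the rest cannot be assigned to either copy.

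Promoter sequences are shown for the 2 largest rises, since genes of cell division are known to share promoter elements. They are from RefSeq on GRCm38.p6, run from 250 bases before to 50 bases after the annotated start, and had an entry used here for 34 of the 43 members. Capitals mark letters of 5 short motifs on either strand. The motifs were chosen with the calls known. These are the cell cycle homology region (CHR, TTTGAA), the CCAAT box (CCAAT), the short site of RFX factors (GTTGCC), the short site of CREB and CREM factors (CRE, TGACGT) and a MYB site (TAACGG).
Kif11, chr19:37376132-37376431, plus strand: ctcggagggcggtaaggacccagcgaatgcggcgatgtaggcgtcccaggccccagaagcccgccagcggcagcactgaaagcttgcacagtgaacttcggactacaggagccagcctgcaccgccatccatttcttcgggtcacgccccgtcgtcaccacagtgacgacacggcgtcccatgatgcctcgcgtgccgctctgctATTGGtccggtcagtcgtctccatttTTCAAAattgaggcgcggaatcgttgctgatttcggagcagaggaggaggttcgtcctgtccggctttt
Kif23, chr9:61946750-61947049, minus strand: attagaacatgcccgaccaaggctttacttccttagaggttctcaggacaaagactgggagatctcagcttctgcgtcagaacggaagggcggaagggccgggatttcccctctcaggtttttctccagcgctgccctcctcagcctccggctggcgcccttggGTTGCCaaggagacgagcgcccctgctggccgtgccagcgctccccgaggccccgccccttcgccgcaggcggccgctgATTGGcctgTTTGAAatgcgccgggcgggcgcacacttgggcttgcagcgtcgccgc
In *Kif11*, a CCAAT box begins 45 bases and a CHR 19 bases before the start, and in *Kif23* a CCAAT box begins 7 bases before the start and a CHR at base 3 after it. A CHR was present in 6 of the 8 members called higher with an entry (*Kif4*, *Kif11*, *Kif14*, *Kif20b*, *Kif22* and *Kif23*), against 17.9% of the 32851 promoters of the same length. The CCAAT box was present in 5 of these 8, in 3 of the 5 called lower and in 7 of the 17 not called, against 37.4%. A CHR was also present in 5 of the 17 members that were tested and not called, namely *Kif2c*, *Kif15*, *Kif18b*, *Kifc1* and *Kifc5b*, and each of these 5 is a spindle kinesin. Among the 5 members called lower with an entry, *Kif27* alone held it. The RefSeq starts of *Kif14* and *Kif27* lie 1505 and 4175 bases from the start of the gene in the deposited table. A match of letters is a description and not a bound site, and no p was computed.

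The largest fall, by far, was in *Kif2b* (ENSMUSG00000046755; chromosome 11, 91575315 to 91577558, minus strand), a paralog of *Kif2a* and *Kif2c* and the 1 member annotated with a single exon. It had control values of 28.1, 108 and 32.5 FPKM and cKO values of 0.255, 0.0913 and 0 FPKM. Behind these values were 1038, 3708 and 1261 fragments in the control libraries and 9, 3 and 0 fragments in the cKO libraries, where the floor is 3 fragments per library. *Kif2b* was thus among the most abundant kinesin genes of the control libraries and nearly undetected in the cKO libraries. The log2 fold change on the log2(FPKM + 1) scale was -5.41 (limma, standard error 0.47, Benjamini-Hochberg adjusted p = 2.0e-04), and with a pseudocount of 0.1 it was -7.93 (adjusted p = 1.1e-04). By limma-voom on the fragments it was -9.18 (adjusted p = 0.026). Control replicate 2 was the highest, as it was in the summed spermatid markers. Without it the log2 fold change was -4.81 (adjusted p = 9.7e-06). Every 100-base window of *Kif2b* occurs in no other annotated gene.

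*Kif17* (ENSMUSG00000028758; chromosome 4, 138250435 to 138301967, plus strand), a kinesin-2 motor of cilia whose testis form is known to carry the transcription coactivator ACT in spermatids, was also highest in control replicate 2. Its control values were 12.9, 25.1 and 13.4 FPKM and its cKO values 4.71, 4.05 and 5.31 FPKM. The groups did not overlap, and control replicate 2 stood apart from the other controls. In the fit the log2 change was -1.61 (standard error 0.25, limma adjusted p = 0.0027), and without control replicate 2 it was -1.32 (adjusted p = 5.5e-04).

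*Kif9* (ENSMUSG00000032489; chromosome 9, 110476958 to 110525179, plus strand), a kinesin-9 motor of the sperm axoneme, fell without such a spread among the controls. It had control values of 18.3, 15.1 and 16.9 FPKM and cKO values of 5.06, 5.69 and 4.38 FPKM. The lowest value in the control libraries was that of control replicate 2, the library with the highest spermatid markers. On the log2 scale the change was -1.56 (standard error 0.12, limma adjusted p = 9.5e-05). The cKO mean was 30.1% of the control mean. Its family member *Kif6* had control values of 1.46, 1.08 and 0.730 FPKM and cKO values of 0.571, 0.431 and 0.580 FPKM. Its mean was under 1 FPKM, so it was not tested, and with no filter it did not pass (limma adjusted p = 0.15).

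**Figure D3:**
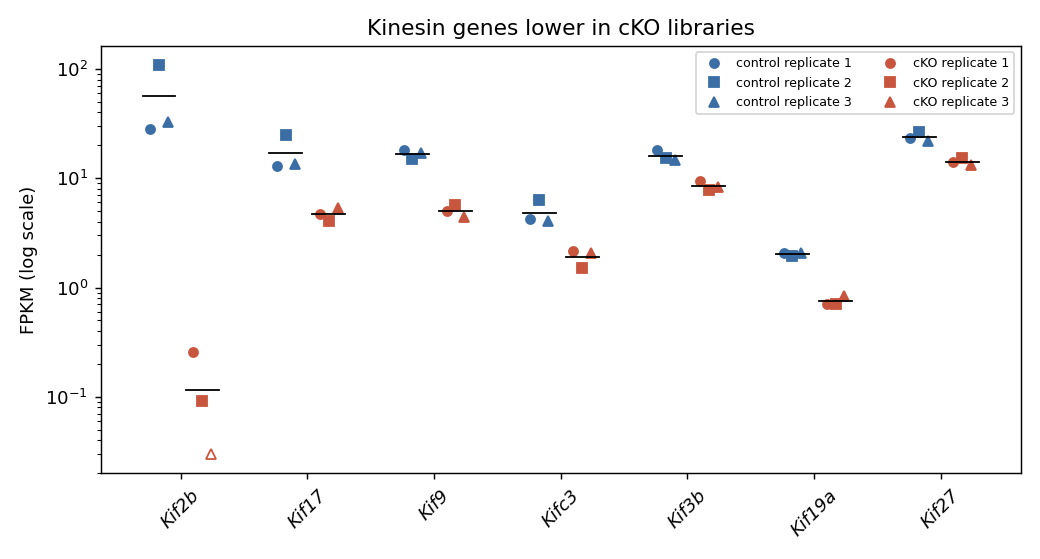
FPKM on a log scale of the 7 kinesin genes called lower in cKO STRA8+ cells, with a symbol for each library (blue, control; red, cKO) and a line for the mean (n = 3 per group). The open symbol of *Kif2b* in cKO replicate 3 stands for 0 FPKM, which a log axis cannot show. In each gene the 3 cKO libraries lie below the 3 control libraries.

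The promoters of these 3 genes, the largest falls with an entry, are shown for comparison with those above, with the same motifs in capitals.
Kif2b, chr11:91577506-91577805, minus strand: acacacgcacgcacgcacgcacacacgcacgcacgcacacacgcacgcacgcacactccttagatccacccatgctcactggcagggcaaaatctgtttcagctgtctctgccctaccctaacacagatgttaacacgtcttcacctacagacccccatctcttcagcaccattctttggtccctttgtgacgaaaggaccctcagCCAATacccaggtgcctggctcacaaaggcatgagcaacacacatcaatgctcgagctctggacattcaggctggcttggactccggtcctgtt
Kif17, chr4:138262001-138262300, plus strand: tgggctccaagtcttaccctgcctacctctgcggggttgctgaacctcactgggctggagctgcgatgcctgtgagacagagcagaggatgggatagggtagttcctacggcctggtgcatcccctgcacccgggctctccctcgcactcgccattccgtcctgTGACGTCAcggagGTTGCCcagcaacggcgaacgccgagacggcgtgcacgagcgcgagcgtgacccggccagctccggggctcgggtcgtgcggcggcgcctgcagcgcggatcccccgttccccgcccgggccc
Kif9, chr9:110476708-110477007, plus strand: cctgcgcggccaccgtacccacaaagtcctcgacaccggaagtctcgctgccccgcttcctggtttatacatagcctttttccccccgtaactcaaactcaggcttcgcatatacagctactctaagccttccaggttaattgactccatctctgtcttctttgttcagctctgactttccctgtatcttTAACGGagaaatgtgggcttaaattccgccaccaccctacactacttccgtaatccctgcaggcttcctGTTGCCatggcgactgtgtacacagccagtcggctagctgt
None of the 3 held a CHR. *Kif17* held an RFX site that begins 73 bases before the start and a pair of overlapping CRE sites that begin 86 and 84 bases before it, on opposite strands. The start that RefSeq gives for *Kif17* lies 11816 bases inside the gene as the deposited table bounds it. *Kif9* held an RFX site at base 10 after the start and a MYB site 60 bases before it, and *Kif2b* a CCAAT box 44 bases before it. The RFX site was present in 2 of the 5 members called lower with an entry, 2 of the 8 called higher, 5 of the 17 not called and 12.5% of all promoters of this length. In the same order, the CRE site was present in 1 of 5, 1 of 8, 2 of 17 and 7.51%, and the MYB site in 1 of 5, 0 of 8, 0 of 17 and 2.76%.

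The motor subunits of heterotrimeric kinesin-2, which drives transport from the base to the tip of cilia, parted from each other. *Kif3a* had control values of 34.5, 33.7 and 35.7 FPKM and cKO values of 35.7, 35.9 and 31.9 FPKM. The groups overlapped, and the log2 fold change was -0.01 (95% interval -0.18 to 0.16, limma adjusted p = 0.94), with a sign that changed under other scalings. *Kif3b* had control values of 17.9, 15.5 and 14.7 FPKM and cKO values of 9.53, 7.88 and 8.28 FPKM. It was called lower (log2 fold change -0.83, standard error 0.11, limma adjusted p = 0.0013). *Kifap3*, the accessory subunit and no member by name, had control values of 24.4, 28.8 and 20.2 FPKM and cKO values of 14.8, 16.8 and 15.0 FPKM, and was called lower too (log2 fold change -0.61, standard error 0.13, limma adjusted p = 0.012).

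The ratio of *Kif3b* to *Kif3a* FPKM, which does not depend on the scaling of a library, was 0.521, 0.459 and 0.412 in control replicates 1 to 3 and 0.267, 0.220 and 0.260 in cKO replicates 1 to 3. This ratio was computed after the values of both genes had been seen. The groups did not overlap, and the two-sided exact permutation test gave p = 0.1, the smallest that 3 libraries against 3 can give. A ratio shows unequal change, and not which subunit changed.

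**Figure D4:**
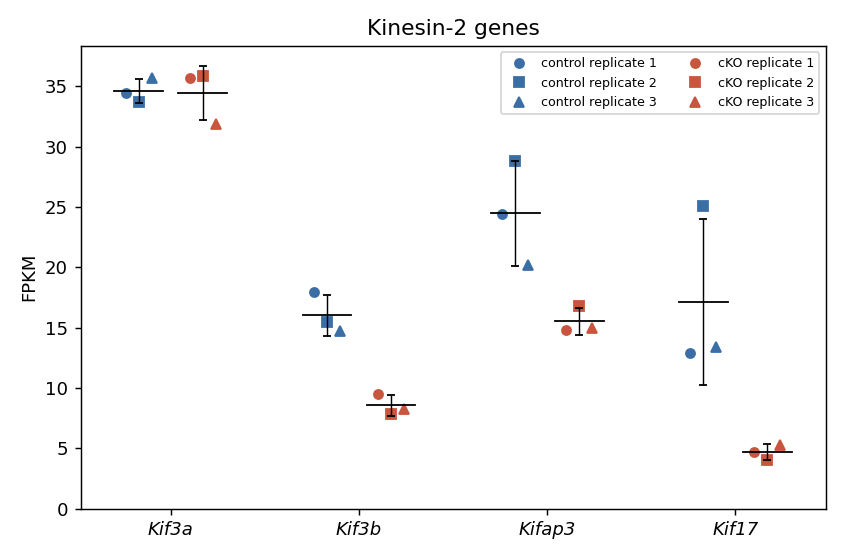
FPKM of the kinesin-2 motor genes *Kif3a*, *Kif3b* and *Kif17* and of the accessory subunit gene *Kifap3*, with a symbol for each library (blue, control; red, cKO), a line for the mean and bars for 1 SD (n = 3 per group). *Kif3a* overlaps between groups, and the other 3 genes are lower in each cKO library.

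*Kif27*, a relative of *Kif7* that acts in motile cilia, had control values of 23.3, 26.3 and 21.8 FPKM and cKO values of 14.1, 15.4 and 13.1 FPKM (log2 fold change -0.70, standard error 0.098, limma adjusted p = 0.0018). *Kif19a*, which shortens cilia by taking apart microtubules at their tips, had control values of 2.09, 1.92 and 2.07 FPKM and cKO values of 0.704, 0.705 and 0.841 FPKM (log2 fold change -0.79, standard error 0.13, limma adjusted p = 0.0036). The level of *Kif19a* is low, and its log2 fold change was -1.33 with a pseudocount of 0.1, -1.39 by limma-voom on the fragments (adjusted p = 0.0013) and -0.40 under quantile normalization (limma adjusted p = 0.043). *Kif7*, a regulator of Hedgehog signalling at the ciliary tip, went the other way. Its control values were 10.5, 11.2 and 11.5 FPKM and its cKO values 13.7, 14.03 and 15.8 FPKM (log2 fold change 0.36, standard error 0.085, limma adjusted p = 0.017). The call on *Kif7* was lost without control replicate 1 (0.33, adjusted p = 0.057) or cKO replicate 3 (0.30, adjusted p = 0.069), and under quantile normalization the change was 0.55 (adjusted p = 0.0042). Exons of 2 genes on the other strand cover 20.3% of its exonic bases, and of these the antisense gene *9330171B17Rik* was called lower (-0.58, limma adjusted p = 0.049) and *Ticrr* was not called (0.19, limma adjusted p = 0.34). *Kif24*, which acts at centrioles, was at 10.8 ± 1.05 FPKM in the controls and 10.2 ± 2.07 FPKM in the cKO libraries (SD, n = 3; limma adjusted p = 0.68).

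Most cargo kinesins did not pass the test. *Kif5b*, the widely used heavy chain of kinesin-1, had control values of 17.8, 16.8 and 19.5 FPKM and cKO values of 25.0, 25.9 and 24.0 FPKM, with no overlap (log2 fold change 0.45, standard error 0.080, limma adjusted p = 0.0054). *Kif5a* and *Kif5c*, the other heavy chains of kinesin-1, were lower in level, at 5.56 and 4.44 FPKM in the control mean, and were not called. *Kif13b*, a kinesin-3 motor, had control values of 14.2, 12.3 and 15.6 FPKM and cKO values of 22.7, 20.7 and 18.7 FPKM (log2 fold change 0.53, standard error 0.11, limma adjusted p = 0.011). The most abundant cargo kinesin, *Kif1c*, had control values of 21.6, 21.2 and 22.2 FPKM and cKO values of 25.7, 21.5 and 23.9 FPKM, and was not called (log2 fold change 0.12, 95% interval -0.08 to 0.32, limma adjusted p = 0.30). *Kifc2* was not called either (0.22, limma adjusted p = 0.22), but passed without control replicate 2 (0.35, adjusted p = 0.030).

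*Kifc3*, a minus-end kinesin of cell junctions and the Golgi, was the 1 cargo kinesin called lower. It had control values of 4.19, 6.32 and 4.06 FPKM and cKO values of 2.17, 1.495 and 2.07 FPKM (log2 fold change -0.99, standard error 0.18, limma adjusted p = 0.0064). Exons of other genes on the opposite strand cover 27.5% of the exonic bases of *Kifc3*. Whether the counting used strand is not given in the sources used here, and without strand the reads of *Kifc3* and of genes on the other strand cannot be told apart.

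*Kif26a*, which belongs to the kinesin-11 family, was abundant in both groups, with control values of 21.6, 23.2 and 23.4 FPKM and cKO values of 23.1, 18.7 and 21.01 FPKM, and was not called (log2 fold change -0.12, limma adjusted p = 0.36). *Kif1bp* lay just outside the threshold, with control values of 12.2, 11.8 and 12.1 FPKM and cKO values of 10.4, 10.2 and 10.4 FPKM (log2 fold change -0.21, standard error 0.070, limma adjusted p = 0.059). Its groups did not overlap, and the cKO mean was 85.5% of the control mean. Under quantile normalization the log2 fold change of *Kif1bp* was -0.014 (limma adjusted p = 0.90). The other members not called were *Kif15*, *Kif18b*, *Kif1b*, *Kif3c*, *Kif13a*, *Kif16b*, *Kif21a* and *Kif21b*. With the members above, the 20 genes not called had log2 fold changes from -0.26 to 0.38. Under the filter were *Kif1a*, *Kif6*, *Kif26b* and *Kif28*, with means from 0.0756 to 0.810 FPKM, none of which passed with no filter (limma adjusted p from 0.15 to 0.85), and *Kif12*, which had 0 fragments in each of the 6 libraries.

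**Figure D5:**
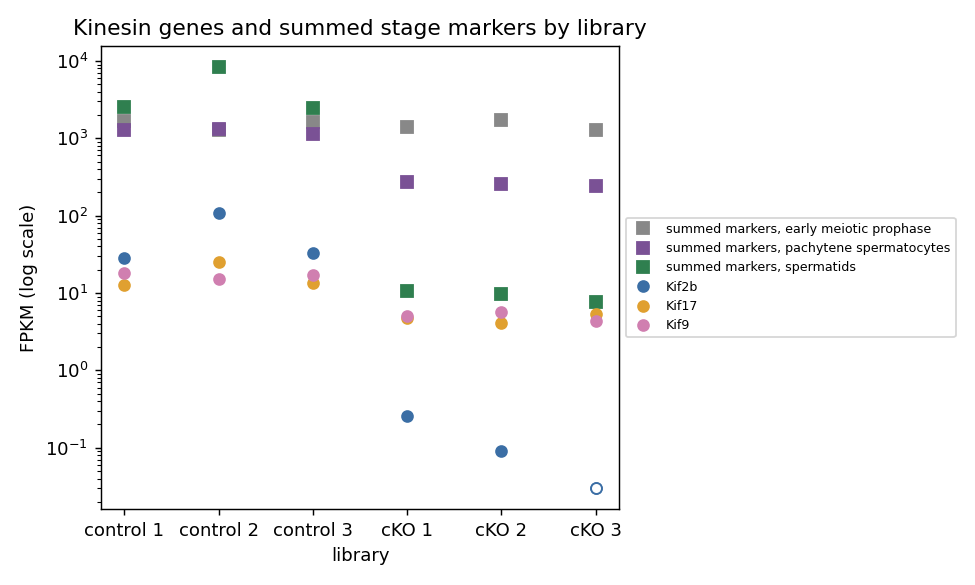
FPKM on a log scale in each of the 6 libraries for *Kif2b*, *Kif17* and *Kif9* (circles) and for the sums of 10 early meiotic prophase, 10 pachytene spermatocyte and 10 spermatid markers (squares). The open circle stands for 0 FPKM. *Kif2b*, *Kif17* and the spermatid markers share their highest library, control replicate 2, and *Kif9* does not. Control replicate 2 was also the highest library of other members not shown, among them *Kif27* and *Kifc3*, called lower, and *Kif2c* (41.3 FPKM), not called.

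Partners of the kinesins and other spindle genes were read beside the members. Of 15 kinesin partners, 14 were tested, with 1 called higher and 3 lower (median log2 fold change 0.05), near the shares of all genes tested (11.8% and 22.2%). The one called higher was *Cenpe*, the kinesin of the kinetochore that does not carry a Kif symbol, with control values of 19.8, 19.5 and 21.4 FPKM and cKO values of 28.8, 25.7 and 24.5 FPKM (log2 fold change 0.36, limma adjusted p = 0.016). Besides *Kifap3*, those called lower were *Map7*, which recruits kinesin-1 to microtubules (5.14, 8.42 and 5.84 FPKM in the controls and 2.49, 2.50 and 2.72 FPKM in the cKO libraries; -1.04, limma adjusted p = 0.0037), and *Klc2*, a light chain of kinesin-1 (56.6, 44.4 and 50.3 FPKM in the controls and 36.5, 39.2 and 35.1 FPKM in the cKO libraries; -0.43, limma adjusted p = 0.016). Of 22 spindle regulators that are not kinesins, 4 were called higher (*Tpx2*, *Anln*, *Ttk* and *Nusap1*) and 2 lower (*Aurkc* and *Nuf2*), with a median log2 fold change of 0.18. *Tpx2*, which brings Aurora A kinase to the spindle, rose by 0.49 (standard error 0.088, limma adjusted p = 0.0057), and *Aurkc*, the Aurora kinase of meiotic cells, fell by 0.85 on the log2 scale (standard error 0.11, limma adjusted p = 0.0013). *Racgap1*, the partner of *Kif23* in centralspindlin, was not called (0.17, standard error 0.086, limma adjusted p = 0.18).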

How the data were processed

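The authors deposited 1 table of FPKM for 54532 genes in the 6 libraries, with gene lengths. The submitters' processing notes name HISAT2 2.0.5 and mm10. The counter, the annotation and the strand setting are not given in the sources used here. The product of FPKM and gene length was a whole multiple of 1 library-specific step for 100% of the values above 0 (tolerance 0.02 fragments, or 1e-04 of the count where that is larger), which gave the fragments per gene. From the deposited FPKM, log2(FPKM + 1) was tested with limma 3.58.1 in R 4.3.3 (eBayes with a trend) over the 15451 genes that averaged 1 FPKM or more in the 6 libraries, with Benjamini-Hochberg adjustment over all of them and a threshold of 0.05. On this scale the changes of low genes are understated. Exons, overlaps and 100-base windows are from GENCODE M21 on GRCm38. Bounds of 40 of the 43 members in the table equal those of GENCODE M21. Those of *Kif20a*, *Kifc1* and *Kifc5b* differ, so the shares quoted for these genes describe the GENCODE M21 gene and not the one counted. Promoters are from RefSeq, with members on chromosome 18 (*Kif20a* and *Kif5b*) left out. The promoters they were compared with were not filtered by chromosome. Motifs were searched on both strands.

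The members, the roles given to them, and the lists were chosen with earlier results of these data known. Values in each library are given for every member called and for the member with the highest mean FPKM of each role, and for list genes by their call or the size of their change. Other members whose call changed without 1 library, *Kif6*, *Kif1bp*, *Kif24*, *Kif2c*, *Kifc5b*, *Kif5a*, *Kif5c*, *Racgap1* and *Dynlrb1* were named after their values had been seen. The alternatives were another pseudocount, other filters and scalings, limma-voom on the recovered fragments, no trend, a replicate block and leaving out each library. Libraries with the same number were not paired in the labels. The test was also run on simulated data with known changes and the same dispersion for every gene. That setting is simpler than these libraries, so it does not measure the error of the calls given here.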

Additional observations from a re-analysis of the deposited data

How the results depend on the processing

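The counts of kinesin genes were 9 to 11 higher and 7 to 8 lower when each library was left out in turn, against 11 and 7 with all 6 libraries. Under quantile normalization 17 were higher and 7 lower, and the 6 added were *Kif15*, *Kif5a*, *Kif13a*, *Kif21a*, *Kifc1* and *Kifc2*. Quantile normalization shifted the all-gene median of the log2 fold changes to 0.21, from -0.01, and gave 5164 genes higher and 2527 lower of all tested, against 1821 and 3437. A filter of a mean of at least 5 FPKM tested fewer genes and left 1950 lower in all and 5 kinesin genes lower. It removed *Kif19a* and *Kifc3* from the test. Without each library in turn, 969 to 1767 genes were higher and 2693 to 3510 lower in all. With a replicate block, 891 genes were higher and 2870 lower in all, and 9 kinesin genes were higher and 7 lower, with *Kif18a* (adjusted p = 0.082) and *Kif7* (adjusted p = 0.051) lost. The correlation of same-numbered libraries in their deviations from the group means was -0.0014, -0.11 and 0.016, so the numbers were not taken as pairs. The 18 calls kept their direction in each alternative that tested the gene, and 16 of them also kept their side of the threshold in each. *Kif3a*, which was not called, changed sign under median of ratios scaling (0.0052), quantile normalization (0.094), FPKM recomputed per library total (0.039) and limma-voom (0.040), and ran from -0.036 to 0.046 when each library was left out. *Kif26a*, also not called, was 0.011 under quantile normalization. The cause of these changes was not tested.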

Other observations

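The table also holds kinesin pseudogenes. *Kif4-ps* (ENSMUSG00000092054; GRCm38 chromosome 12, 101145614 to 101149758, plus strand), a transcribed processed pseudogene, had control values of 1.89, 1.64 and 1.51 FPKM and cKO values of 0.0461, 0.0165 and 0.0318 FPKM. Behind these values were 129, 104 and 108 fragments in the control libraries and 3, 1 and 2 fragments in the cKO libraries. Its mean was under 1 FPKM, so it was not tested. The groups did not overlap, and the direction was opposite to that of the X-linked *Kif4*, with which it shares no 100-base window. *Kifc5c-ps* had 0 to 8 fragments per library and *Kif22-ps* had 0 in each.

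Cytoplasmic dynein, the motor that runs toward the minus end of microtubules, was read beside the kinesins with a list of its subunits, subunits of its cofactor dynactin, and regulators and adaptors such as *Pafah1b1* and *Bicd2*. Of 22 genes, 20 were tested, with 1 called higher and 5 lower (median log2 fold change -0.14), where 11.8% and 22.2% of all genes tested were. *Dynlrb2*, a light chain abundant in testis, had control values of 18.1, 19.8 and 15.7 FPKM and cKO values of 0, 0.246 and 0 FPKM (log2 fold change -4.13, limma adjusted p = 4.0e-06). *Dynlrb1*, its paralog, averaged 56.3 FPKM in the controls and 68.1 FPKM in the cKO libraries and was not called (limma adjusted p = 0.099). *Dync1i2* (-0.97, limma adjusted p = 8.5e-04), *Dctn2* (-0.80, limma adjusted p = 2.0e-04), *Dctn3* (-0.54, limma adjusted p = 8.7e-04) and the heavy chain gene *Dync1h1* (-0.32, limma adjusted p = 0.042) were also called lower, and the gene called higher was the light chain gene *Dynlt3* (0.33, limma adjusted p = 0.030).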
